A study of Mus musculus with 12 samples.

Results

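The interferon regulatory factors are a family of transcription factors that share a DNA-binding domain and read GAAA-rich sites in the promoters of interferon and interferon-induced genes. The 8 members described here, Irf1, Irf2, Irf3, Irf4, Irf5, Irf7, Irf8 and Irf9, were found by matching the Entrez identifiers of the count table to mouse gene symbols, and they are 8 of the 27179 genes listed. All 8 passed the filter on low counts that left 13415 genes for testing, and no library had fewer than 175 reads on any of them. RNA was sequenced from splenic conventional dendritic cells of female C57/BL6 mice, sorted into the cDC1 and cDC2 subsets from spleens digested with collagenase and DNAse. The mice were wild type (WT) or carried the genotype zfp366-/- (KO), which targets the gene for the zinc finger protein DC-SCRIPT, and the labels name no stimulus for either genotype. The 4 groups were WT cDC1, KO cDC1, WT cDC2 and KO cDC2, each with 3 libraries. The 3 libraries of a group came from 3 mouse pools, and the labels give the 2 subsets of a genotype the same pool numbers. The age of the mice and the number per pool are not given in the sources used here.

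Members of the family divide their work in dendritic cells. IRF8, with its partners PU.1 and BATF3, is required for cDC1 to form, whereas IRF4 acts in cDC2 and in the migration and antigen presentation of dendritic cells. IRF3 and IRF7 are switched on by phosphorylation after nucleic acids are sensed and induce type I interferons, IRF5 acts downstream of Toll-like receptors and MyD88, IRF9 is the DNA-binding subunit of the ISGF3 complex, and IRF1 and IRF2 are an activator and a largely repressive counterpart at shared sites. Several of these proteins are controlled after translation, which RNA levels do not measure.

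The libraries held between 11330503 and 36761685 counted reads, a 3.24-fold range. Levels are given as CPM, the reads of a gene relative to the TMM-scaled size of its library. Zfp366 itself was lower in KO cDC1, at 47.5 ± 1.85 CPM (SD, n = 3), than in WT cDC1, at 103 ± 44.0, but the 3 WT values were spread over 152, 89.2 and 67.5. Its log2 fold change was -1.12 (SE 0.27, adjusted p = 0.0326), and this call was lost in 6 of 22 alternative fits: on the cDC1 groups alone, and without WT cDC1 replicate 2, any KO cDC1 replicate or KO cDC2 replicate 3 (adjusted p up to 0.142). In cDC2, Zfp366 averaged 57.4 ± 4.92 CPM in WT and 66.9 ± 12.9 in KO. The deleted stretch is not given in the sources used here, so counts over the whole gene are a weak check of the labels. The marker lists were written with earlier results of these data known, so they are not an independent check of the subset labels. By these lists the labels held: all 10 cDC1 markers were called higher and all 10 cDC2 markers lower in WT cDC1 than in WT cDC2. Of all genes tested, 10.4% were called higher and 10.9% lower there. WT cDC1 replicate 1 stood apart: without it, 3052 genes were called between KO and WT cDC1, against 714 with it. Values without that library, or within replicates 2 and 3, are given beside the results of the family that they change.

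Irf8 and Irf4 had the largest subset differences of the family, and in KO cDC1 the libraries of both lay apart from WT cDC1, Irf4 above and Irf8 below. Irf8 (Entrez 15900) lies on chromosome 8, from 120736358 to 120756694, and Irf4 (Entrez 16364) on chromosome 13, from 30749233 to 30766981. The 250 bases before their first RefSeq starts (build GRCm38.p6, plus strand) are shown because these members had the largest subset differences. Capitals mark matches to the STAT site GAS (TTCNNNGAA), the interferon-stimulated response element core (GAAA and GAAA with 2 bases between), the composite site for PU.1 and an interferon regulatory factor (GGAA and GAAA with 2 bases between) and the TATA box (TATAAA), searched on both strands.
Irf8, chr8:120736108-120736357: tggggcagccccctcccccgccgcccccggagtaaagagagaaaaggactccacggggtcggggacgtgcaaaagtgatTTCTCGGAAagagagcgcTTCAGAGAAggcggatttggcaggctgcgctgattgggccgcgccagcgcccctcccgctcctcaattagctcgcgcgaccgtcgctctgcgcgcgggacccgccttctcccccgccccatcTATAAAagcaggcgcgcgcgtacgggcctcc
Irf4, chr13:30748983-30749232: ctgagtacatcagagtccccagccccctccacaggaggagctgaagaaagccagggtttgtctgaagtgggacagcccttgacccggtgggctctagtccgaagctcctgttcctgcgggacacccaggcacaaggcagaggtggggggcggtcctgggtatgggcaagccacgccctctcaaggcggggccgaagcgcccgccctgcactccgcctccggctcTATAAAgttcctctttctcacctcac
The Irf8 stretch holds 2 GAS matches, at -171 to -163 and at -153 to -145 from the start, and a TATA box at -31 to -26. The Irf4 stretch holds a TATA box at -26 to -21 and no other match. Among 32851 RefSeq windows of 300 bases (250 before and 50 after a start), 8.30% held a GAS match, 3.44% the response element core, 2.72% the composite site and 13.6% a TATA box. RefSeq gives Irf8 a further start, whose stretch (chr8:120738389-120738638) is not shown. A match describes letters and not occupancy.

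Irf8 was the most abundant member in cDC1. In WT cDC1, Irf8 stood at 1942, 2276 and 2185 CPM in replicates 1, 2 and 3. In KO cDC1 it stood at 1418, 1254 and 1250 CPM, so every KO library lay below every WT library. Means were 2134 ± 173 CPM in WT and 1307 ± 95.9 in KO (SD, n = 3). The log2 fold change was -0.71 (SE 0.45), and with the spread shared over all 4 groups it missed the threshold, with an adjusted p of 0.435. That shared spread included WT cDC2, where the coefficient of variation of Irf8 was 86.1%, against 8.09% in WT cDC1 and 7.33% in KO cDC1. Fitted on the 2 cDC1 groups alone, the difference was -0.72 with an SE of 0.17 and an adjusted p of 0.0546. Within replicates 2 and 3 of all groups it was -0.86 (SE 0.15) and was called, with an adjusted p of 0.000716, in a fit that called 47.8% of all genes.

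In cDC2 Irf8 was low. WT cDC2 had 91.4, 28.2 and 18.4 CPM and KO cDC2 46.4, 33.1 and 31.7 CPM in replicates 1, 2 and 3, so the groups overlapped. The KO difference in cDC2 was -0.32 on the log2 scale (SE 0.45) and turned to 0.67 without WT cDC2 replicate 1. That library held Irf8 at 4.28% of the WT cDC1 mean, against 1.32% and 0.862% in the other two WT cDC2 libraries. The same library was the highest of the 3 for 7 of the 10 cDC1 markers, with a median over the 10 markers of 2.69% of the WT cDC1 mean against 0.753% and 0.590%. Clec9a was at 5.30% and Cd8a at 6.25% there, while Xcr1 was at 0.428%. The library was the lowest of the 3 for Wdfy4 (26.6% against 41.3% and 44.5%) and Snx22 (3.27% against 4.83% and 10.9%), and Itgae lay between the others, and the part of these markers in the Irf8 value was not tested. Between WT cDC1 and WT cDC2, Irf8 differed by 5.53 on the log2 scale (SE 0.54, adjusted p = 1.4e-05), a 46.2-fold difference. Between the KO subsets it differed by 5.14 (SE 0.53, adjusted p = 3.8e-05).

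Irf4 had the opposite subset pattern, and its level in KO cDC1 lay between those of WT cDC1 and cDC2. WT cDC1 had 18.5, 12.7 and 10.1 CPM in replicates 1, 2 and 3. KO cDC1 had 99.99, 86.7 and 74.2 CPM, above every WT cDC1 library and below every cDC2 library. WT cDC2 had 322, 249 and 268 CPM and KO cDC2 had 281, 214 and 200.4 CPM, with overlapping ranges. The rise in KO cDC1 was 6.31-fold, or 2.66 on the log2 scale (SE 0.26, adjusted p = 0.000101), and it was called in all 22 alternatives, with values between 2.40 and 2.93. In cDC2 the KO difference was -0.27 (SE 0.24, adjusted p = 1). The 2 effects differed by 2.93 on the log2 scale (SE 0.35, adjusted p = 0.00136), and this difference was also called in all 22 alternatives. Irf4 was lower in cDC1 than in cDC2, 20.3-fold in WT (log2 fold change -4.34, SE 0.28, adjusted p = 5.9e-07) and 2.66-fold in KO (log2 fold change -1.41, SE 0.25, adjusted p = 0.00191).

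Markers of cDC2 rose with Irf4 in KO cDC1. Of 10 cDC2 markers, 9 rose and none fell, where 3.6% of all genes rose and 1.72% fell. Their median log2 fold change was 2.41 against -0.00078 over all genes tested. All 10 rose without WT cDC1 replicate 1, in a fit that called 11.8% of all genes higher and 10.5% lower. The summed level of the markers was 124 to 129 CPM in WT cDC1, 746 to 785 in KO cDC1 and 5073 to 6141 in WT cDC2, and no marker of the list was at 0 in any of these groups. As a share of the WT cDC2 mean, Irf4 in KO cDC1 was at 35.7%, 31.0% and 26.5%. The integrin gene Itgam was at 97.6%, 96.2% and 91.5%, the receptor gene Sirpa at 13.4%, 15.9% and 16.9%, and the median of the 10 markers at 19.8%, 22.7% and 21.4%. The cDC1 markers went from a summed 9179 to 9628 CPM in WT cDC1 to 6832 to 7486 in KO cDC1. Of the 10, the integrin gene Itgae was called lower and none higher, where 1.72% of all genes fell and 3.6% rose. The list was uneven: Naaa alone went from a mean of 3418 to 1889 CPM. As a share of the WT cDC1 mean, Itgae was at 5.7%, 6.4% and 6.3% in KO cDC1 and Cd8a at 149%, 149% and 156%. The median of the 10 was 68.8%, 71.0% and 70.5%. The part of either marker list in the Irf4 and Irf8 values was not tested. In such bulk libraries, fewer cells of a type and less RNA per cell cannot be told apart.

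**Figure D1:**
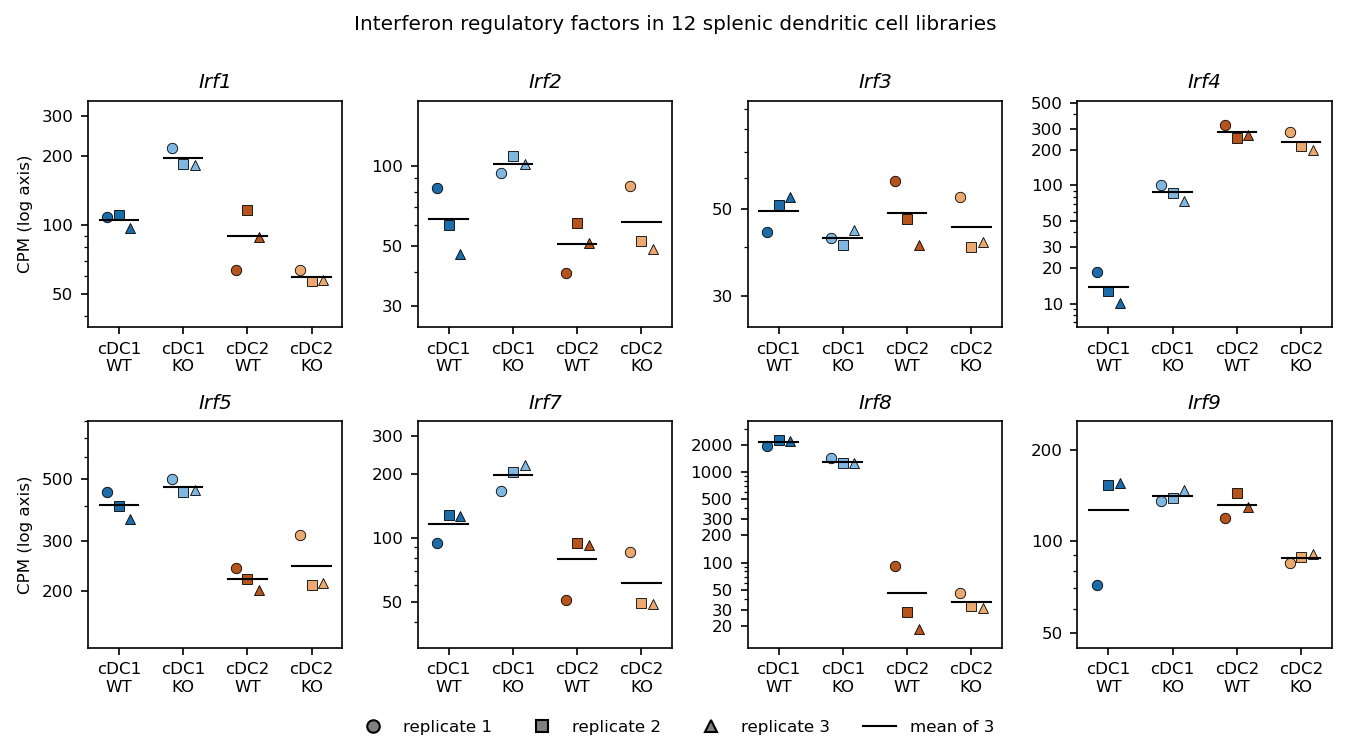
CPM of the 8 interferon regulatory factors in each library on log axes, by subset and genotype (3 libraries per group, symbols mark the replicate number and bars the mean). Irf4 lies between 74.2 and 99.99 CPM in KO cDC1, between the WT cDC1 and the cDC2 libraries, and Irf8 is lower in all 3 KO cDC1 libraries than in WT cDC1.

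The balance of Irf8 and Irf4 was compared per length, as CPM per kilobase of gene length (RPKM). The ratio of Irf8 to Irf4 was 174, 296 and 357 in WT cDC1 and 23.5, 23.9 and 27.9 in KO cDC1. It was 0.470, 0.188 and 0.114 in WT cDC2 and 0.273, 0.256 and 0.262 in KO cDC2. The ratio was thus lower in every KO than in every WT cDC1 library and stayed far above 1 in both, while it was below 1 in all 6 cDC2 libraries. Irf8 made up 66.0% to 68.8% of the summed RPKM of the 8 members in WT cDC1 and 47.1% to 50.5% in KO cDC1. In cDC2 its share was 2.09% to 9.64% in WT and 4.33% to 4.52% in KO. The sum itself was 1115 ± 70.3 RPKM in WT cDC1 and 953 ± 34.9 in KO cDC1, against 329 ± 15.5 and 294 ± 59.5 in WT and KO cDC2.

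**Figure D2:**
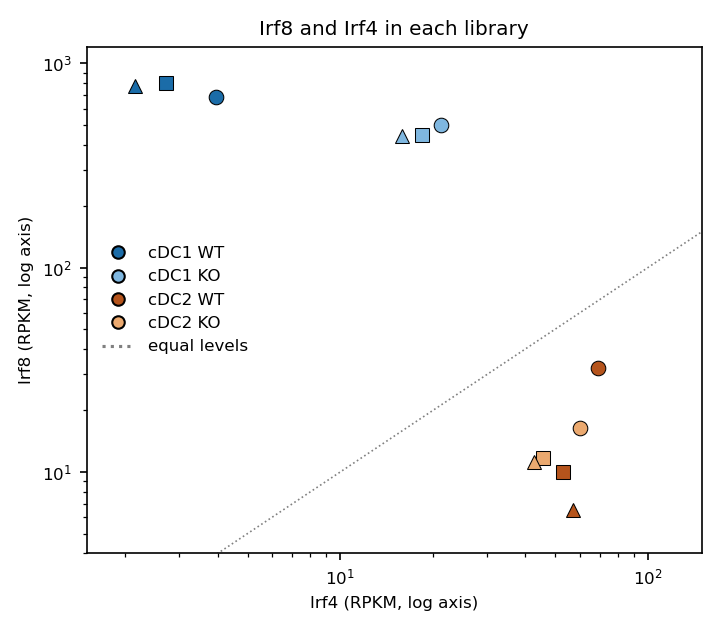
Irf8 against Irf4 in each of the 12 libraries, both in RPKM on log axes, with a dotted line at equal levels (symbols mark replicates 1, 2 and 3 as circle, square and triangle). All 6 cDC1 libraries lie above the line and all 6 cDC2 libraries below it, and KO cDC1 sits to the right of WT cDC1, at Irf8 to Irf4 ratios of 23.5 to 27.9.

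Irf1, an activator induced by interferon-gamma, rose in KO cDC1. Irf1 (Entrez 16362) lies on chromosome 11, from 53770014 to 53778374. Its first RefSeq start is shown with the same marking, because it is the other member called in KO cDC1.
Irf1, chr11:53769764-53770013: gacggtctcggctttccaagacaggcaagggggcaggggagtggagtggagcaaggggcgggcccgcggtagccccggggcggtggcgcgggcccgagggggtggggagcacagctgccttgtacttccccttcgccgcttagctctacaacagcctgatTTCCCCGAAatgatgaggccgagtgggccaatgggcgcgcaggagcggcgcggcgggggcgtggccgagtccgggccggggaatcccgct
A single GAS match stands at -90 to -82 from the start, where 8.3% of all RefSeq windows of 300 bases held a GAS match. RefSeq gives Irf1 a further start, whose stretch (chr11:53770223-53770472) is not shown and holds no match to these sites. WT cDC1 had 108, 111 and 97.5 CPM of Irf1 and KO cDC1 had 218, 186 and 184 CPM in replicates 1, 2 and 3. The ranges did not overlap, and the log2 fold change was 0.89 (SE 0.22, adjusted p = 0.0329), a 1.86-fold rise. This call sat near the threshold: it was lost in 7 of 22 alternatives, each of them without 1 library, with adjusted p up to 0.140. The libraries concerned were WT cDC1 replicates 2 and 3, KO cDC1 replicates 1, 2 and 3, and KO cDC2 replicates 2 and 3. In WT cDC2 Irf1 had 63.4, 116 and 89.1 CPM, and in KO cDC2 63.7, 57.2 and 57.8 CPM. The difference in cDC2, -0.59 (SE 0.22), had an adjusted p of 1. Within replicates 2 and 3 it was -0.84 and was called (adjusted p = 0.00288), where 7.72% of all genes were called. The KO effect on Irf1 differed between the subsets by 1.48 on the log2 scale (SE 0.31, adjusted p = 0.0334). With the mouse pool as a block the same difference was 1.44, with an adjusted p of 0.118, so it was no longer called. It was lost in 11 of the 22 alternatives, among them those without WT cDC1 replicate 2 or 3, any KO cDC1 replicate, WT cDC2 replicate 2 or 3, or KO cDC2 replicate 2 or 3. Irf1 was not called between the WT subsets (log2 fold change 0.24, adjusted p = 0.490) and was higher in cDC1 in the KO subsets, by 1.72 (SE 0.22, adjusted p = 0.000205).

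Irf2, the largely repressive counterpart of Irf1 (Entrez 16363, chromosome 8, 46739745 to 46847458), was not called between genotypes. WT cDC1 had 82.5, 60.2 and 46.8 CPM and KO cDC1 93.7, 109 and 102 CPM, with no overlap and a log2 fold change of 0.68 (SE 0.27, adjusted p = 0.188). Without WT cDC1 replicate 1, the highest WT library, the value was 0.93 and was called, with an adjusted p of 0.0299, in a fit that called 22.3% of all genes. In cDC2 the WT libraries had 39.9, 61.2 and 51.6 CPM and the KO libraries 83.7, 52.3 and 48.9 CPM. The 300-base window of Irf2 was the single window among those of the 8 members with a response element core, at -241 to -232, overlapping a composite site at -247 to -238, and it also held a GAS match at -224 to -216.

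Of the members that act in interferon production, Irf7 showed the largest difference in KO cDC1, though it was not called. Irf7 (Entrez 54123, chromosome 7, 141263183 to 141266499), itself an interferon-induced gene, had 94.2, 128 and 127 CPM in WT cDC1 and 166, 204 and 220.3 CPM in KO cDC1. The ranges did not overlap, and the log2 fold change was 0.76 (SE 0.29, adjusted p = 0.176). In WT cDC2 it had 50.8, 94.1 and 92.5 CPM and in KO cDC2 85.7, 49.2 and 48.7 CPM. KO cDC2 replicates 2 and 3 lay below every WT cDC2 library, and KO replicate 1 lay inside the WT range. The cDC2 difference over all replicates was -0.37 (SE 0.29, adjusted p = 1). Within replicates 2 and 3 it was -0.93 and called (adjusted p = 0.000263), as was the difference in cDC1, 0.71 (adjusted p = 0.00017). That fit called 7.72% of all genes in cDC2 and 47.8% in cDC1. Irf7 was higher in KO cDC1 than in KO cDC2 by 1.68 (SE 0.30, adjusted p = 0.00195). The KO effects on Irf7 in the 2 subsets differed by 1.13 (SE 0.41), which missed the threshold with an adjusted p of 0.315. Between the WT subsets its ranges were only just apart, at 94.24 CPM in WT cDC1 replicate 1 and 94.13 in WT cDC2 replicate 2. The subset difference of 0.56 had an adjusted p of 0.204. Within replicates 2 and 3 it was 0.46 and called (adjusted p = 0.00337), where 47.5% of all genes were called.

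Irf3 and Irf5 were not called between genotypes in either subset. Irf3 (Entrez 54131, chromosome 7, 44997648 to 45002848), a constitutive sensor-driven factor, had 43.7, 51.2 and 53.7 CPM in WT cDC1 and 42.3, 40.4 and 44.2 CPM in KO cDC1. In WT cDC2 it had 58.9, 47.2 and 40.4 CPM and in KO cDC2 53.8, 39.97 and 41.2 CPM, so all neighbouring groups overlapped. Its KO differences were -0.23 (SE 0.20) in cDC1 and -0.12 (SE 0.20) in cDC2. Irf5 (Entrez 27056, chromosome 6, 29526130 to 29541869) had 449, 401 and 359.5 CPM in WT cDC1 and 500.3, 450.5 and 455 CPM in KO cDC1. These ranges were only just apart, at 448.9 CPM in WT cDC1 replicate 1 and 450.5 in KO cDC1 replicate 2. The log2 fold change of 0.22 (SE 0.21) had an adjusted p of 0.617. In WT cDC2 Irf5 had 240.3, 221 and 201.5 CPM and in KO cDC2 315, 209.5 and 213 CPM. Irf5 was higher in cDC1 than in cDC2, by 0.87 in WT (SE 0.21, adjusted p = 0.00989) and by 0.93 in KO (SE 0.21, adjusted p = 0.0092). The WT call was lost when the WT subsets were fitted alone (adjusted p = 0.0633), and the KO call without KO cDC2 replicate 2 or 3 (adjusted p of 0.055 and 0.0578).

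Irf9, the DNA-binding subunit of ISGF3 (Entrez 16391, chromosome 14, 55603985 to 55610030), depended on WT cDC1 replicate 1. WT cDC1 had 71.6, 154 and 155 CPM and KO cDC1 136, 139 and 148 CPM. The log2 fold change was 0.15 (SE 0.25, adjusted p = 0.794), and it turned to -0.13 without WT cDC1 replicate 1. In WT cDC2 it had 119, 145 and 129.5 CPM and in KO cDC2 84.9, 88.6 and 91.1 CPM, the only member whose cDC2 ranges did not overlap between genotypes. That difference, -0.57 (SE 0.26), had an adjusted p of 1. Within replicates 2 and 3 it was -0.61 and called (adjusted p = 0.00504), where 7.72% of all genes were called.

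**Figure D3:**
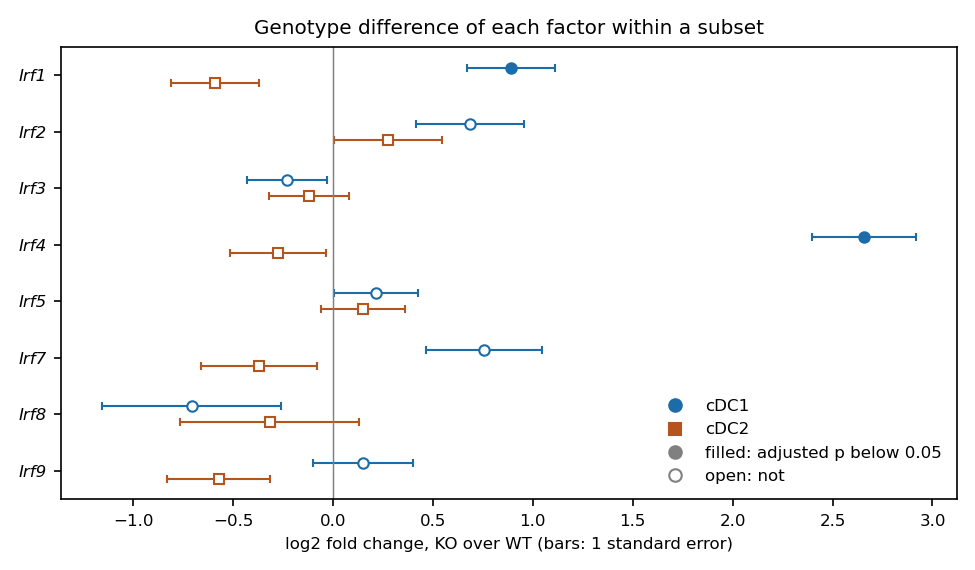
Log2 fold change of KO over WT for each member in cDC1 (circles) and cDC2 (squares), with 1 standard error of the edgeR fit over 12 libraries, filled where the adjusted p was below 0.05. Irf4 at 2.66 and Irf1 at 0.89 in cDC1 are filled, and no cDC2 value is.

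In cDC1, 2 of the 8 members were called between KO and WT, both higher, where 5.32% of all genes tested were called and 3.6% were called higher. Their median log2 fold change was 0.45, against -0.00078 over all genes. The 3 KO libraries did not overlap the 3 WT libraries for 6 members (Irf1, Irf2, Irf4, Irf5, Irf7 and Irf8), where 26.9% of all genes did not overlap. Among all called genes, 67.6% were higher in KO, and this share was 52.9% with gene length offsets and 57.4% with DESeq2. In cDC2, edgeR called none of the 8 members and 0% of all genes, DESeq2 and limma-voom also called 0, and 271 genes (2.02%) had an unadjusted p below 0.05, among them Irf1 and Irf9. The members' median there was -0.29, against 0.02 over all genes, and 1 of 8 did not overlap where 5.88% of genes did not. For the difference of the KO effect between subsets, 2 of 8 members were called where 1.42% of all genes were, with a median of 0.57 against -0.04. Within replicates 2 and 3, 6 members were called (Irf1, Irf2, Irf4, Irf7 and Irf9 higher, Irf8 lower), where 38.3% of all genes were called. There Irf2 differed by 1.12 (adjusted p = 0.00128), Irf7 by 1.65 (adjusted p = 1.6e-05), Irf8 by -1.31 (adjusted p = 0.00091) and Irf9 by 0.48 (adjusted p = 0.0258). Of all genes called for this difference in the fit over 12 libraries, 89.5% were higher, and 73.5% with DESeq2. The 5 comparisons share libraries, so their counts are not independent of each other.

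Between the subsets, 3 of 8 members were called in WT (Irf8 and Irf5 higher in cDC1, Irf4 lower), where 21.2% of all genes were called, and 4 did not overlap where 32.7% of genes did not. In KO, 5 of 8 were called (Irf8, Irf1, Irf7 and Irf5 higher in cDC1, Irf4 lower), where 16.9% of all genes were called, and 7 did not overlap where 47.8% of genes did not. With the mouse pool as a block, which joins the cDC1 and cDC2 libraries of a genotype, 3 members were called in WT and 5 in KO. With that block, 2235 of all genes were called in WT and 1544 in KO, against 2846 and 2264 without it. In the fit without the block, Irf2 and Irf9 missed the threshold in KO, at 0.72 and 0.68 on the log2 scale (adjusted p of 0.0874 and 0.0905). Both were called without WT cDC1 replicate 1 (adjusted p of 0.0414 and 0.00461), with the KO subsets fitted alone (0.045 and 0.00718) and within replicates 2 and 3 (9.3e-05 and 0.000337). Those fits called 3382, 4172 and 6620 of all genes between the KO subsets, against 2264 in the fit over 12 libraries. Irf2 was also called without KO cDC2 replicate 1, at 1.01 (adjusted p = 0.0211).

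Replicate 1 and the other two replicates gave different signs for several members. Each replicate 1 value is a single KO library minus a single WT library, which the labels do not state to be a pair. In cDC1, the KO minus WT difference of Irf9 was 0.92 on the log2 scale in replicate 1 and -0.11 for the means of replicates 2 and 3, and that of Irf2 was 0.18 and 0.99. In cDC2, Irf7 differed by 0.75 in replicate 1 and -0.93 in the others, Irf2 by 1.07 and -0.15, and Irf8 by -0.98 and 0.51. Irf4 kept its sign in both, at 2.44 and 2.82 in cDC1. Within replicates 2 and 3, 5 members were called in KO cDC1 (Irf1, Irf2, Irf4 and Irf7 higher, Irf8 lower), but 47.8% of all genes were called there too. In cDC2, 3 members were called lower (Irf1, Irf7 and Irf9) where 7.72% of all genes were called, and 4.37% were called lower.

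Compared per length, Irf8 was the highest member in cDC1 and Irf5 in cDC2. In WT cDC1, Irf8 averaged 755 RPKM and Irf5 169, both apart from the next member, followed by Irf7 (62.6), Irf9 (47.2), Irf1 (31.4), Irf2 (25.4) and Irf3 (22.6), of which each overlapped its neighbour, and Irf4 (2.94) was lowest and apart. In KO cDC1 the order was Irf8 (462 RPKM), Irf5 (196), Irf7 (106), Irf1 (58.3), Irf9 (52.4), Irf2 (40.9), Irf3 (19.3) and Irf4 (18.6), with overlap between Irf1 and Irf9 and between Irf3 and Irf4. In WT cDC2, Irf5 led at 92.4 RPKM, Irf4 followed at 59.8, and the remaining members down to Irf8, at 16.3, each overlapped the next. In KO cDC2, Irf5 averaged 103 RPKM and Irf4 49.5, and Irf8, at 13.1, was lowest and apart. Over groups, Irf4 was ordered WT cDC2, KO cDC2, KO cDC1 and WT cDC1, with overlap between the first pair only, and Irf8 was ordered WT cDC1, KO cDC1, WT cDC2 and KO cDC2, with overlap between the last pair only.

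Upstream of the family, interferon genes themselves were almost silent. None of 17 passed the filter, and between 13 and 16 of them had 0 reads in all libraries of a group. Their summed level was at most 0.752 CPM in any library, and Ifnb1 was at 0 in all groups but KO cDC1, where its mean was 0.0659 CPM. Of 14 receptor and JAK-STAT genes, 2 rose in KO cDC1 and none fell, where 3.6% of all genes rose and 1.72% fell, with a median of 0.26 against -0.00078 over all genes. Socs3, a feedback inhibitor of cytokine signalling, went from 14.5 ± 1.38 to 71.0 ± 31.0 CPM (log2 fold change 2.29, SE 0.30, adjusted p = 0.000614), and Ifnar2, a chain of the type I interferon receptor, from 63.9 ± 2.40 to 112 ± 12.6 CPM (0.81, SE 0.21, adjusted p = 0.0411), a call lost in 9 of 22 alternatives. Those were the fits with no filter and with a replicate block, and those without WT cDC1 replicate 2 or 3, any KO cDC1 replicate, WT cDC2 replicate 2 or KO cDC2 replicate 3 (adjusted p up to 0.168).

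Among 13 sensing adaptors and kinases that feed the family, 3 rose in KO cDC1 and none fell, against the same 3.6% and 1.72% of all genes, with a median of 0.37 against -0.00078. Sting1, the adaptor of cytosolic DNA sensing, went from 38.9 ± 3.43 to 159 ± 19.7 CPM (log2 fold change 2.03, SE 0.32, adjusted p = 0.00221). Slc15a4, an endolysosomal transporter needed for IRF5 and IRF7 responses, rose by 1.03 (SE 0.18, adjusted p = 0.0054), and Ticam2, an adaptor of TLR4, by 1.06 (SE 0.24, adjusted p = 0.0222), a call lost with limma-voom and without WT cDC1 replicate 2 or any KO cDC1 replicate (adjusted p up to 0.099). None of 9 DNA-binding partners was called (median 0.42). Their smallest p belonged to Junb, at 1.12 (adjusted p = 0.0539; called in 9 of 22 alternatives, among them without WT cDC1 replicate 1, WT cDC2 replicate 1 or KO cDC2 replicate 1), and Spi1 (PU.1) and Batf3 had -0.13 and -0.20. Irf2bp2, a corepressor that binds IRF2, differed by 1.38 (adjusted p = 0.0785) and was not called. Its value was 2.02 without WT cDC1 replicate 1 (adjusted p = 0.00339) and 2.14 within replicates 2 and 3 (adjusted p = 1.9e-06), fits that called 22.3% and 47.8% of all genes. Irf2bp2 was called in 6 of 22 alternatives. In cDC2 none of the genes in these lists was called.

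Downstream of the family, 9 of 29 genes that ISGF3 switches on rose in KO cDC1 and none fell, where 3.6% of all genes rose and 1.72% fell. The 9 were Oas3, Oasl2, Oas1a, Ddx58, Ifit1, Ifit3, Ifit3b, Rsad2 and Rtp4. The median log2 fold change over the 29 was 1.17 against -0.00078 over all genes. Oas3, a sensor of double-stranded RNA, went from 2.46 ± 1.02 to 151 ± 4.79 CPM (log2 fold change 5.94, SE 0.58, adjusted p = 9.7e-05). Oasl2 went from 2.37 ± 0.177 to 53.5 ± 11.1 CPM (4.49, SE 0.49, adjusted p = 0.000184) and Oas1a from 6.28 ± 2.89 to 42.0 ± 8.48 CPM (2.74, SE 0.34, adjusted p = 0.000503). Without WT cDC1 replicate 1, 11 rose and 1 fell, in a fit that called 11.8% of all genes higher and 10.5% lower. In the fit of replicates 2 and 3, 25 rose and 1 fell, where 24.9% of all genes were called higher and 22.9% lower. Without WT cDC2 replicate 1, 15 rose, in a fit that called 628 of all genes higher and 308 lower. In cDC2 none of the 29 was called, where 0% of all genes were, with a median of -0.38. For 6 of the 29 the KO effect was called larger in cDC1 than in cDC2, where 1.27% of all genes were. Between the WT subsets, 14 of the 29 were lower and 2 higher in cDC1, with a median of -1.05. Over all genes, 10.9% were lower and 10.4% higher there. Between the KO subsets 2 were lower and 9 higher, with a median of 0.23, where 8.43% of all genes were lower and 8.45% higher.

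Of 22 genes downstream of IRF1 and interferon-gamma, 21 were tested, and 6 rose in KO cDC1 (Gbp2, Gbp3, Gbp4, Gbp7, Irgm1 and Cd274) and none fell, against 3.6% and 1.72% of all genes, with a median of 0.25 against -0.00078. The guanylate-binding protein genes Gbp2, Gbp3 and Gbp4 went from 26.2 ± 1.14 to 126 ± 7.50 CPM, from 5.07 ± 0.276 to 23.4 ± 1.61 CPM and from 15.9 ± 6.12 to 73.0 ± 6.44 CPM. Their log2 fold changes were 2.27 (SE 0.20, adjusted p = 5.5e-05), 2.20 (SE 0.29, adjusted p = 0.000759) and 2.20 (SE 0.38, adjusted p = 0.00443). Among the genes not called, Ido1, Cxcl9 and Psmb9 had negative values, at -1.63, -1.05 and -1.0. The summed level of the 22 genes was 7204 to 8834 CPM in WT cDC1 and 6720 to 7419 CPM in KO cDC1. Leaving out any of WT cDC1 replicates 2 and 3 or KO cDC1 replicates 1, 2 and 3 lowered the number of the list that rose to 3. Those fits called 247 to 297 of all genes higher. Without WT cDC1 replicate 1, 8 rose and 2 fell, where 11.8% of all genes rose and 10.5% fell. In the fit of replicates 2 and 3, 10 rose and 4 fell, where 24.9% of all genes rose and 22.9% fell. In cDC2 none was called, with a median of -0.20.

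**Figure D4:**
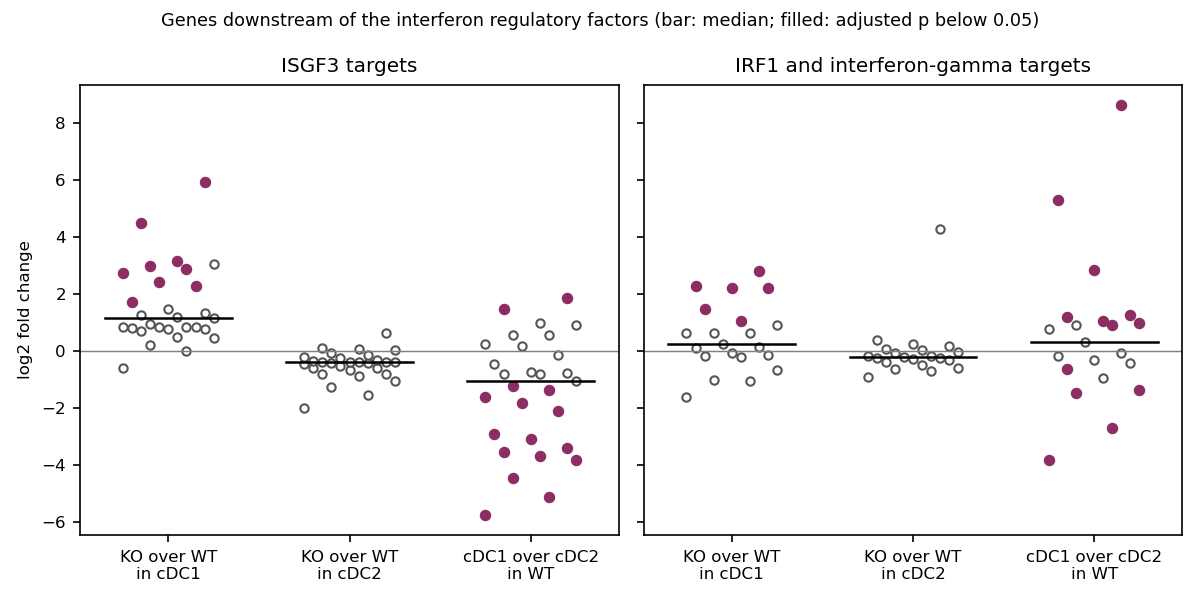
Log2 fold changes of the 29 ISGF3 targets and the 21 tested IRF1 and interferon-gamma targets in 3 comparisons, each point a gene, with a bar at the median and filled points where the adjusted p was below 0.05. In KO cDC1, 9 ISGF3 targets and 6 IRF1 targets are filled, all above 0, and in cDC2 none is.

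Markers of other cells that could contribute such transcripts were summed in the same libraries. Plasmacytoid dendritic cell markers, of which Siglech is the defining one, summed to 76.7 to 113 CPM in WT cDC1 and 113 to 116 CPM in KO cDC1. Of the 10, none was called higher and Ccr9 and Pacsin1 were called lower, where 3.6% of all genes rose and 1.72% fell. Their median log2 fold change was 0.66 against -0.00078 over all genes. Siglech averaged 1.47 CPM in WT and 3.64 CPM in KO cDC1 and was not called (log2 fold change 1.3, adjusted p = 0.244). Monocyte markers summed to 1271 to 2789 CPM in WT cDC1 and 3390 to 4594 CPM in KO cDC1, where Ccr2, Cx3cr1 and Ms4a6c rose and Treml4 fell among 10. The median log2 fold change of the monocyte list was 0.03 against -0.00078 over all genes, and its sum in WT cDC2 was 3455 to 3605 CPM. Macrophage markers summed to 133 to 259 CPM in WT and 138 to 220 CPM in KO cDC1, and Vcam1 fell. NK cell markers summed to 79.3 to 99.7 CPM in WT and 156 to 182 CPM in KO cDC1, with none of 5 tested called. B cell markers summed to 293 to 377 and 302 to 339 CPM, mostly Ighm, with none of 7 tested called, and T cell markers to 6.71 to 9.80 and 4.02 to 7.13 CPM. Neutrophil markers summed to 2.25 to 24.0 and 7.44 to 13.8 CPM, with Elane at 0 in both groups, and erythroid and platelet markers to 14.4 to 132 and 11.5 to 52.0 CPM. The part of these cells in the levels of the family and its targets was not tested.

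The genes whose pattern was closest to each member were found by the root mean square difference of log2 CPM, each gene centred on its mean over the 12 libraries, among 9358 genes with a mean of at least 5 CPM. Irf4, whose own values spread by 1.75 around their mean, was closest to Tlr1, Entpd4 and St8sia6, at 0.37, 0.38 and 0.38. Irf8, with a spread of 2.82, was closest to Laptm4b, Tlr3 and Naaa, at 0.33, 0.41 and 0.41. The nearest genes to Irf1 (spread 0.65) were Ifi214, Irf7 and Ifi209, at 0.26, 0.28 and 0.28, and those to Irf7 (spread 0.72) were Lgals3bp, Ifi209 and Ifi214, at 0.14, 0.20 and 0.20. Irf1 and Irf7 therefore had 2 nearest genes in common. For Irf2 they were Zbtb7a, Ppp3ca and Adar (0.13 to 0.14), for Irf3 they included Nap1l4 and Psme3ip1 (0.08 and 0.09), for Irf5 Tor1b, Nono and Trpc4ap (0.08 to 0.11) and for Irf9 Depdc7, Il16 and Pnp2 (0.20 to 0.21). These distances describe the same 12 libraries, whose group differences and depth they share.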

How the data were processed

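RNA from 12 libraries of sorted splenic cDC1 and cDC2 was measured, with 3 mouse pools per genotype. The deposited values are raw read counts per Entrez gene, made by the authors with featureCounts on GRCm38 (mm10), per the submitters' processing notes; the aligner and versions are not given in the sources used here. The deposited table also gives a gene length in bases, used for RPKM. Its 12 columns equal the 12 library files. Symbols came from RefSeq (GRCm38.p6), which matched 25275 of 27179 identifiers; the 1904 unmatched rows held 2.23% of reads. Genes were filtered with filterByExpr, scaled by TMM and fitted over 4 group means with edgeR 4.0.16 (robust quasi-likelihood F test, R 4.3.3), with Benjamini-Hochberg adjustment over 13415 genes and a threshold of 0.05. SE is the size of the log2 fold change divided by the square root of F, and its median over genes was 0.33 for KO against WT in cDC1. The procedure was tested on simulated counts with the same mean in all groups, except for genes changed in KO cDC1. That test held no subset differences and no outlying library, so it does not cover those features of the data. Alternatives used other scalings, no filter, replicate or pool blocks, gene length offsets, fewer groups, left-out libraries, limma-voom (limma 3.58.1) and DESeq2 1.42.0.

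Same-numbered cDC1 and cDC2 libraries of a genotype come from the same mouse pool by the labels. Their deviations from the group means correlated at -0.205, -0.111 and -0.068 in WT and at 0.259, 0.143 and 0.144 in KO. The description codes of equal-numbered pools of the 2 genotypes differ only in their first digit. The labels do not say what the codes mean or whether such pools belong together. Within a subset, the p-values measure the spread between pools, shared over the 4 groups. For comparisons across the subsets, the fit treats the libraries as independent, though each pool gave both a cDC1 and a cDC2 library. Only the fit with the mouse pool as a block takes account of that. The members, the 17 gene lists (7 pathway and 10 marker lists) and the tests were chosen with earlier results of these data known. Named genes are all members, the 3 genes nearest to each in pattern (predicted genes skipped), and up to 3 genes per pathway list by smallest p in KO against WT cDC1. Other genes named in the text, such as those counted as called in a list, were named after their values were seen. Protein sequences were not used here. Some results are not reported here.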

Additional observations from a re-analysis of the deposited data

Results flagged for a closer look

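The effect of the KO genotype differed between cDC1 and cDC2 for Irf4, and less firmly for Irf1, by a test of the difference itself, edgeR's interaction contrast. For Irf4 the difference was 2.93 on the log2 scale (SE 0.35, adjusted p = 0.00136), from 2.66 in cDC1 and -0.27 in cDC2. For Irf1 it was 1.48 (SE 0.31, adjusted p = 0.0334), from 0.89 in cDC1 and -0.59 in cDC2. The Irf1 call was lost with the mouse pool as a block (1.44, adjusted p = 0.118), the pairing the labels give, and in 11 of 22 alternatives in all, over which the adjusted p ranged from 8.5e-05 to 0.118.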

How the results depend on the processing

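Irf4 in KO cDC1, the difference of its effect between subsets, and Irf4 and Irf8 between the subsets kept direction and call in every alternative run. The number of members called in KO against WT cDC1, 2 as reported above, was 5 within replicates 2 and 3 and 1 to 3 when single libraries were left out; in cDC2, 0 became 3 within replicates 2 and 3. For the difference between subsets, 2 became 1 with the replicate block, 1 with the mouse pool block, 6 within replicates 2 and 3 and 1 to 2 with single libraries left out; the cause was not tested. The replicate block (same number in WT and KO) moved the count of all genes called in KO cDC1 from 714 to 733. Same-numbered deviations correlated at 0.0237, -0.0674 and 0.106 in cDC1 and -0.0508, -0.0469 and -0.055 in cDC2, and 2 of 12 libraries correlated best with their own number. The block changed no call on a member other than Irf1 in the difference between subsets (1.47, adjusted p = 0.0502).

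Signs turned only for differences that were not called. Within replicates 2 and 3 these were Irf9 in KO cDC1 (-0.13), Irf2, Irf5 and Irf8 in KO cDC2 (-0.16, -0.0032 and 0.45), Irf2 and Irf9 between WT subsets (-0.07 and 0.18) and Irf3 between KO subsets (0.05). Irf3 between WT subsets turned with upper quartile scaling (-0.03) and with those groups alone (-0.02). With single libraries left out, Irf9 in KO cDC1 ranged from -0.13 to 0.32. In KO cDC2, Irf2 ranged from -0.0082 to 0.42, Irf3 from -0.27 to 0.04, Irf5 from -0.06 to 0.26 and Irf8 from -0.69 to 0.67. For the difference between subsets, Irf3 ranged from -0.26 to 0.04 and Irf5 from -0.04 to 0.29. Between WT subsets, Irf3 turned to values from -0.0003 to -0.10 and Irf9 ranged from -0.21 to 0.24, and between KO subsets Irf3 turned to 0.06.

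Counts of all genes called in KO against WT cDC1, the difference between subsets, WT subsets and KO subsets were 714, 190, 2846 and 2264, and 6438, 5157, 6391 and 6620 within replicates 2 and 3. With DESeq2 the first and second were 1318 and 480, with the mouse pool block the second was 116, and with only the groups compared the subset counts were 1537 and 4172. Leaving out single libraries gave 318 to 3052, 110 to 501, 2049 to 3266 and 1209 to 3382. The genotype differences of Irf3 and Irf5 were close to or below their SE.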
